A study of Mus musculus with 9 samples.

Results

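Of the 22174 genes in the expression table of splenic B cells, 7 chemokine genes were examined: Ccl3, Ccl4, Ccl5, Ccl22, Cxcl9, Cxcl10 and Cxcl16. They were chosen by name, and all 7 were found. One library per mouse was compared among 3 groups of 3 mice. Z2551, Z2606 and Z2641 formed the Eµ-MTCP1 group, B4376, B4437 and C1594 the Eµ-TCL1 group, and Z2754, Z2755 and Z2785 the wildtype group, and values below follow this order. Eµ-MTCP1 mice carry the human MTCP1 gene and Eµ-TCL1 mice the human TCL1 gene, in each case under a VH promoter and the IgH-Eµ enhancer, which drive expression in immature and mature B cells. The strain was C57/BL6NTac, the transgenic mice were of matched age and had a heavy disease burden, and the wildtype mice were littermates that lacked hMTCP1. No ages were given. All Eµ-MTCP1 mice descended from 1 founder line, Z36, so an effect of that insertion site cannot be told apart from an effect of the transgene. B cells were taken from whole spleen with a pan B cell isolation kit, and in such bulk samples fewer cells of a type and less RNA per cell cannot be told apart.

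Chemokines are small secreted proteins that direct the migration of leukocytes through G protein-coupled receptors. B cells release Ccl3 and Ccl4 after engagement of the B cell receptor, and in chronic lymphocytic leukemia (CLL) these chemokines are known as signals from the leukemic cells to T cells and monocytes. Ccl5 is made in large amounts by activated T cells and natural killer (NK) cells. Ccl22 attracts CCR4-bearing T cells, regulatory T cells among them. Cxcl9 and Cxcl10 are interferon-induced ligands of CXCR3. Cxcl16 is made as a transmembrane protein, shed by ADAM10, and recognized by CXCR6.

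The genes fall into CC and CXC classes by the spacing of the first cysteines of the mature protein, and the coding sequence around this pair is shown for each gene to make the classes visible. Capitals mark the codons of these cysteines. The sequences were read from the GENCODE M21 transcripts (GRCm38), on the coding strand.
Ccl3: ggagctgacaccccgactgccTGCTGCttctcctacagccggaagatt
Ccl4: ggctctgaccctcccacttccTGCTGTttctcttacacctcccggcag
Ccl5: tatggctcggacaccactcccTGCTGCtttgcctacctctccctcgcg
Ccl22: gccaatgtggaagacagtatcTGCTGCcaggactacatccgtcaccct
Cxcl9: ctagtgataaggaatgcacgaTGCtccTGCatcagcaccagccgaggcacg
Cxcl10: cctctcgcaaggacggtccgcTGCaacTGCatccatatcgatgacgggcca
Cxcl16: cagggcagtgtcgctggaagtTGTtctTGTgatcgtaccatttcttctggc
In the 4 CC genes the codons are adjacent, and in the 3 CXC genes they lie 3 bases apart, the length of 1 codon.

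Ccl3 (chr11:83647844-83649355, minus strand, GRCm38) and Ccl4 (chr11:83662584-83664683, plus strand) are neighbours, with 13.23 kb between them. Ccl5 (chr11:83525778-83530518, minus strand) lies 117.3 kb from Ccl3, and Cxcl16 (chr11:70453983-70459984, minus strand) is on the same chromosome. Cxcl9 (chr5:92321347-92328079, minus strand) and Cxcl10 (chr5:92346638-92348889, minus strand) are 18.56 kb apart. Ccl22 is at chr8:94745590-94751699, on the plus strand. The coding sequences of Ccl3 and Ccl4 were identical at 204 of 291 aligned positions (70.1%), the highest identity of any pair among the 7. They nevertheless shared 0 stretches of 31 bases, the length by which reads are first placed, and no coding stretch of that length in any of the 7 genes occurred in another gene.

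Reads were few for these genes. The reference to which the human transgene sequences had been added, on which the comparisons rest, was found to hold coding sequences only: 100% of its 57040 transcripts with an annotated coding length matched that length within 3 bases. Chemokine coding sequences are short (276 bases in Ccl5 to 741 in Cxcl16), while the full transcripts run from 532 bases in Ccl5 to 2889 in Cxcl9. Each gene is therefore also given on the standard mouse reference of full transcripts. There, the 9 libraries together held 669 reads of Ccl3 against 236 on the coding reference, 678 against 258 of Ccl4, 2999 against 997 of Ccl5, 502 against 61 of Ccl22, 31 against 7 of Cxcl9, 319 against 48 of Cxcl10 and 194 against 79 of Cxcl16. The gain was lowest for Cxcl16 (2.46-fold) and highest for Ccl22 (8.23-fold).

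A library with 3 reads or fewer was taken to lie at the floor, which corresponds to 0.373 to 0.465 CPM (reads scaled to library size) on the coding reference (6447542 to 8033303 reads per library) and 0.214 to 0.263 CPM on the standard reference (11410231 to 14034949 reads). Ccl3, Ccl4 and Ccl5 lay above the floor in every library on both references. On the coding reference, Ccl22 was at the floor in 5 of 9 libraries, Cxcl9 in 8, Cxcl10 in 3 and Cxcl16 in 1. On the standard reference Ccl22 was at the floor in 2 libraries and Cxcl9 in 5, while Cxcl10 and Cxcl16 were above it in all.

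**Figure D1:**
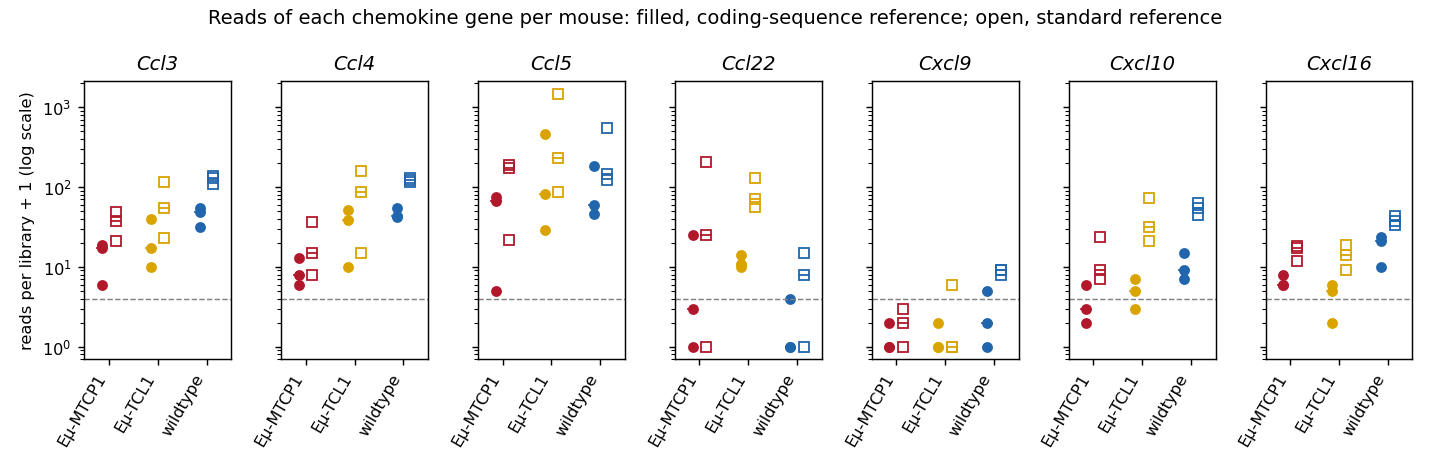
Reads per library plus 1 (log axis) of each chemokine gene in the 9 mice, 1 symbol per mouse and reference, with a short line at each group's median. Filled circles are the coding reference, open squares the standard reference, and the dashed line is the floor of 3 reads; wildtype squares of Ccl3, Ccl4, Cxcl10 and Cxcl16 sit above all Eµ-MTCP1 squares.

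The libraries otherwise matched their labels. On the authors' log2-like normalized scale, whose lowest value is 5.85, MTCP1 was 11.1 to 12.3 in Eµ-MTCP1 mice and at most 6.19 elsewhere, and TCL1A was 14.9 to 15.6 in Eµ-TCL1 mice and at most 6.96 elsewhere. Summed CPM of 6 B cell markers was 7082 to 10043, with all 6 above the floor in each library. Wildtype mouse Z2755 was sequenced on a different lane from the other 8, and Z2755 and Eµ-MTCP1 mouse Z2641 had the highest sums of 6 neutrophil markers, 2629 and 1458 CPM. The comparisons of each model with wildtype share the same 3 wildtype mice.

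Levels can be compared between genes only per length, as TPM values. In wildtype mice on the coding reference Ccl5 was highest, at 71.3 ± 59.2 TPM (mean ± SD, n = 3), followed by Ccl4 at 32.8 ± 5.50, Ccl3 at 32.2 ± 7.77, Cxcl10 at 6.71 ± 3.01, Cxcl16 at 2.40 ± 0.938, Ccl22 at 0.754 ± 1.31 and Cxcl9 at 0.657 ± 0.815 TPM. The ranges of the mice overlapped between Ccl5 and Ccl4, between Ccl4 and Ccl3, between Cxcl16 and Ccl22, and between Ccl22 and Cxcl9. Within each wildtype mouse, Ccl5 was above Ccl4 (in Z2754 only narrowly, 33.2 against 32.0 TPM) and Cxcl16 above Ccl22. The order of Ccl4 and Ccl3, and that of Ccl22 and Cxcl9, changed between mice. In Eµ-MTCP1 mice Ccl5 stood at 33.6 ± 26.4 TPM, Ccl3 at 8.99 ± 4.62, Ccl22 at 5.74 ± 8.68, Ccl4 at 5.35 ± 2.03, Cxcl10 at 2.01 ± 1.77, Cxcl16 at 0.783 ± 0.176 and Cxcl9 at 0.118 ± 0.204 TPM. In Eµ-TCL1 mice Ccl5 stood at 122.8 ± 152.8 TPM, Ccl4 at 21.5 ± 15.5, Ccl3 at 13.9 ± 10.8, Ccl22 at 7.19 ± 1.98, Cxcl10 at 2.51 ± 1.34, Cxcl16 at 0.416 ± 0.251 and Cxcl9 at 0.130 ± 0.225 TPM. On this reference Ccl22 had a higher mean TPM than Cxcl10 and Cxcl16 in both transgenic models and a lower one in wildtype mice, but the Eµ-MTCP1 mean was carried by Z2606 (15.7 TPM, against 1.49 and 0). With full transcripts the Eµ-TCL1 mean of Ccl22 was 2.38 TPM, below the 3.12 of Cxcl10. TPM values differed between the references in both directions: the wildtype mean of Ccl3 was 17.1 TPM with full transcripts, and the Eµ-TCL1 mean of Ccl5 was 140.3.

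Whether leukemic B cells of the models differ from normal B cells in chemokine expression was tested across all genes with edgeR (quasi-likelihood F test), with p-values adjusted by Benjamini-Hochberg over all 11165 genes tested. Ccl3, Ccl4, Ccl5 and Ccl22 passed its filter on low counts and the 3 CXC genes did not. In Eµ-MTCP1 mice against wildtype, 0 of these 4 genes had an adjusted p under 0.05, where 9.46% of all genes tested did. At an unadjusted p under 0.05 the count was 1 (Ccl4), against a background of 24.8%, and the Wald test of DESeq2 called 1 gene, Ccl4, against 14.7% of all genes. In Eµ-TCL1 mice against wildtype edgeR called 0 of 4 (background 9.18%), 0 had an unadjusted p under 0.05 (background 24.9%), and DESeq2 called 0 (background 15.2%). For the mean of both models against wildtype edgeR called 0 of 4 (background 13%), 2 had an unadjusted p under 0.05, Ccl3 and Ccl4 (background 28.8%), and DESeq2 called 0 (background 18.8%). On the standard reference 6 genes passed the filter, all but Cxcl9, and edgeR called 0 in each of these comparisons, where the backgrounds were 9.64, 9.23 and 13.4%. There 3, 1 and 4 of the 6 had an unadjusted p under 0.05, against 24.8, 24.5 and 28.4% of all genes, and DESeq2 called 2, 0 and 0, against 14.9, 15.1 and 19%.

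Ccl4 came closest to a call. Its reads on the coding reference were 5, 12 and 7 in Eµ-MTCP1, 50, 38 and 9 in Eµ-TCL1, against 41, 42 and 54 in wildtype mice. After TMM scaling (trimmed mean of M-values), this was 1.23 ± 0.446 CPM in Eµ-MTCP1, 4.28 ± 2.85 in Eµ-TCL1, against 5.93 ± 1.95 in wildtype mice (mean ± SD, n = 3 each). Every Eµ-MTCP1 mouse lay below every wildtype mouse, while Eµ-TCL1 mice overlapped with wildtype. The log2 fold change of Ccl4 in Eµ-MTCP1 against wildtype was -2.25 ± 0.67 (SE) with an adjusted p of 0.0593. The same comparison on the standard reference, with 14, 35 and 7 reads against 114, 121 and 129, gave -2.44 ± 0.79 and an adjusted p of 0.0859. The call turned on the setting: adjusted p was 0.0148 with DESeq2, 0.0402 with library size alone as normalization, 0.0366 with only the 2 groups compared in the fit, and 0.0268 without Eµ-TCL1 mouse C1594, and over all 30 settings Ccl4 was called in 6, with a log2 fold change between -3.21 and -1.95. Without Z2755, and so within 1 lane, it was -2.43 with an adjusted p of 0.101. In Eµ-TCL1 against wildtype the log2 fold change of Ccl4 was -0.46 ± 0.61 with an adjusted p of 0.691.

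Ccl3 showed a similar arrangement of the mice. Its reads were 5, 18 and 16 in Eµ-MTCP1, 39, 16 and 9 in Eµ-TCL1, against 31, 54 and 48 in wildtype mice on the coding reference, and 20, 48 and 37, then 115, 53 and 22, then 109, 137 and 128 on the standard reference. Eµ-MTCP1 and wildtype mice did not overlap on either reference, and Eµ-TCL1 mice overlapped with both groups. TMM-normalized levels of Ccl3 were 2.01 ± 1.03 CPM in Eµ-MTCP1, 2.87 ± 2.21 in Eµ-TCL1, against 5.65 ± 1.72 in wildtype mice. The log2 fold change against wildtype was -1.48 ± 0.68 in Eµ-MTCP1 (edgeR, adjusted p = 0.205) and -0.97 ± 0.66 in Eµ-TCL1 (adjusted p = 0.401). With DESeq2 on the standard reference Ccl3 was called in Eµ-MTCP1 (adjusted p = 0.0464), and without Eµ-TCL1 mouse B4376 it was called on that reference for both models together (adjusted p = 0.0238). Beside Ccl3 and Ccl4, 15.3% of all genes tested were lower without overlap between Eµ-MTCP1 and wildtype (15% on the standard reference).

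Macrophages also make Ccl3 and Ccl4, and the markers of such cells were summed beside them. For 9 macrophage and monocyte markers the summed level on the coding reference was 509 to 907 CPM in Eµ-MTCP1, 345 to 1441 in Eµ-TCL1 and 790 to 1316 in wildtype mice, with 8 to 9, 7 to 9 and 9 of the 9 markers above the floor. Of those markers none was at 0 throughout a group. With full transcripts the sums were 565 to 1326, 368 to 2042 and 1336 to 2082 CPM. Every Eµ-MTCP1 mouse then lay below every wildtype mouse, while Eµ-TCL1 mice overlapped with both. The 7 dendritic cell markers summed to 3.46 to 19.9, 2.68 to 40.1 and 33.0 to 58.9 CPM in the same order, with Xcr1 at 0 in Eµ-MTCP1 mice and Clec9a at 0 in Eµ-TCL1 and wildtype mice. The mouse with the highest macrophage sum among Eµ-TCL1 mice, B4376, also had the most Ccl3 and Ccl4 of that group, and C1594, with the lowest sum, had the least. In the other groups Ccl3 and Ccl4 did not follow the macrophage sum uniformly on either reference. On the coding reference Z2641 had the lowest sum of the Eµ-MTCP1 mice (509 CPM) and the most Ccl3 (2.64 CPM), while in wildtype mice Ccl3 had the same order as the sum. With full transcripts wildtype mouse Z2755 had the highest sum of its group (2082 CPM) and less Ccl3 (8.75 CPM) and Ccl4 (7.73 CPM) than Z2785 (11.1 and 11.2 CPM, with a sum of 1938), while Z2606 had the highest sum of the Eµ-MTCP1 mice (1326 CPM) and the most Ccl3 (3.94 CPM). The part of these cells in the Ccl3 and Ccl4 levels was not tested.

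**Figure D2:**
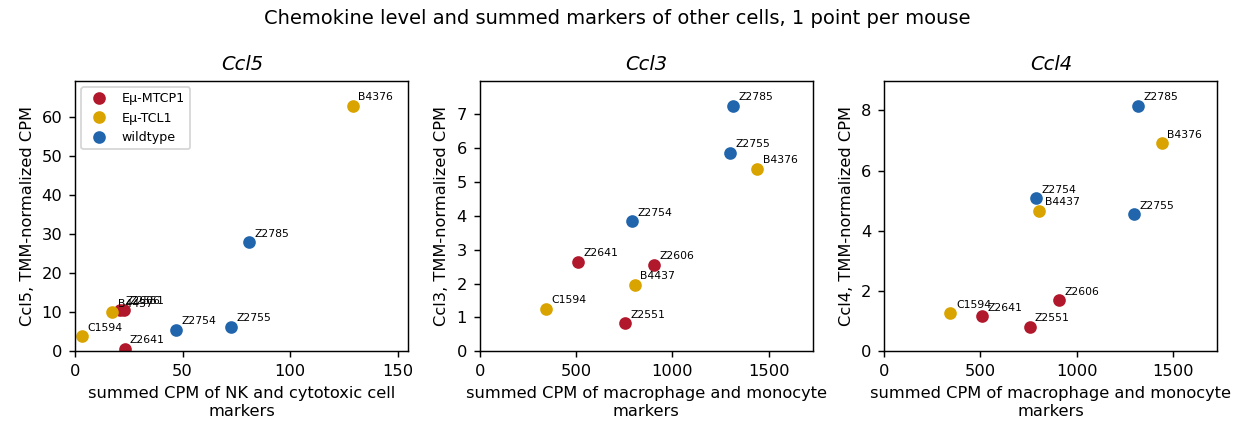
TMM-normalized CPM of Ccl5 against the summed CPM of 8 NK and cytotoxic cell markers, and of Ccl3 and Ccl4 against the summed CPM of 9 macrophage and monocyte markers, 1 point per mouse, coding reference. Eµ-TCL1 mouse B4376 and wildtype mouse Z2785 have the most Ccl5 and the highest NK marker sums; for Ccl4, all Eµ-MTCP1 points lie low over marker sums of 509 to 907 CPM.

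Ccl5 varied widely between the mice of each group. On the coding reference 65, 75 and 4 reads were found in Eµ-MTCP1, 455, 82 and 28 in Eµ-TCL1, against 45, 58 and 185 in wildtype mice. Mouse B4376 held most of the Ccl5 reads of its group, and Z2785 of its own. Among the reads of all 7 chemokines on the standard reference, Ccl5 took 21.2 to 69.1% in Eµ-MTCP1, 37.1 to 77.8% in Eµ-TCL1 and 27.9 to 59% in wildtype mice. TMM-normalized levels of Ccl5 were 7.33 ± 5.77, 25.6 ± 32.4 and 13.3 ± 12.7 CPM. Its log2 fold change against wildtype was -0.84 ± 1.22 in Eµ-MTCP1 (edgeR, adjusted p = 0.710) and 0.96 ± 1.19 in Eµ-TCL1 (adjusted p = 0.675). Without B4376 the latter became -0.91, with an adjusted p of 0.665, and without wildtype mouse Z2785 the value in Eµ-MTCP1 became 0.30, with an adjusted p of 0.908.

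B4376 and Z2785, the mice with the most Ccl5, also had the highest sums of cytotoxic cell transcripts, but the order did not hold within every group. The 8 NK and cytotoxic cell markers summed to 129 CPM in B4376 against 17.3 and 3.35 CPM in the other Eµ-TCL1 mice, and to 80.9 CPM in Z2785 against 47.1 and 72.5 in the other wildtype mice. In Eµ-MTCP1 mice the sum lay below that of every wildtype mouse, down to 20.9 CPM in Z2606, which had 75 reads of Ccl5, while Z2641 had the highest sum of that group and 4 reads. Wildtype mouse Z2755, with a sum of 72.5 CPM, had 6.30 CPM of Ccl5. All 8 markers were above the floor in B4376, Z2755 and Z2785. The 9 T cell markers summed to 60.3 CPM in B4376, where all 9 were above the floor, and to 5.27 to 22.3 CPM elsewhere. The gene whose level was most like that of Ccl5 over the 9 libraries was Ctsw, a protease of cytotoxic lymphocytes (Pearson r = 0.981), followed by H2-T23 (r = 0.936), a class I molecule that is a ligand of NK receptors, and Cd247 (r = 0.935), the zeta chain of the T cell receptor. Residual NK and T cells as a source of the Ccl5 reads were not tested.

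Ccl22 had higher means in both models than in wildtype mice. On the coding reference it had 2, 24 and 0 reads in Eµ-MTCP1, 13, 9 and 10 in Eµ-TCL1, against 0, 0 and 3 in wildtype mice, so that all wildtype libraries lay at the floor. Every Eµ-TCL1 mouse was above every wildtype mouse, as were 16.6% of all genes tested, but in the Eµ-MTCP1 group only Z2606 was above the floor. Measured against the mean floor of the wildtype libraries (3 reads each, 0.384 CPM), the Eµ-TCL1 mean of Ccl22 (1.43 ± 0.348 CPM) was at least 3.74-fold higher, and the Eµ-MTCP1 mean (1.25 ± 1.88 CPM) at least 3.25-fold higher, the latter through 1 mouse. Full transcripts gave 24, 206 and 0, then 55, 127 and 69, then 0, 7 and 14 reads, and Eµ-TCL1 was again above wildtype without overlap (16.5% of all genes). The fitted log2 fold change there was 3.57 ± 1.59 in Eµ-MTCP1 (edgeR, adjusted p = 0.204) and 3.57 ± 1.58 in Eµ-TCL1 (adjusted p = 0.206). With the standard reference and without Eµ-MTCP1 mouse Z2641, which had 0 reads, the value for both models together was 3.86 with an adjusted p of 0.0385, the 1 of 27 settings that called Ccl22.

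The CXCR3 ligands were scarce. Cxcl9 had 0, 1 and 0 reads in Eµ-MTCP1, 1, 0 and 0 in Eµ-TCL1, against 1, 4 and 0 in wildtype mice on the coding reference, so both models lay at the floor throughout and no fold is given. Over full transcripts it had 2, 1 and 0, then 5, 0 and 0, then 8, 7 and 8 reads. All 3 wildtype mice were above both models there, an arrangement shared by 9.01% of all genes tested, and against the floor of the Eµ-MTCP1 libraries the wildtype mean was at least 2.11-fold higher. Of the 2837 transcript stretches of 31 bases in Cxcl9, 17 also occur in other genes (229 in all), outside the coding part. In an exact permutation test on log2 CPM of the coding reference (two-sided), Cxcl9 gave p = 0.333 for both models against wildtype, unadjusted, which was 0.5 after adjustment over 12 such tests.

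Cxcl10 had 1, 2 and 5 reads in Eµ-MTCP1, 6, 4 and 2 in Eµ-TCL1, against 6, 8 and 14 in wildtype mice on the coding reference, where after TMM scaling Z2641 (0.826 CPM) and B4376 (0.830) lay above the lowest wildtype mouse, Z2754 (0.743). The exact permutation test gave a difference of -0.99 log2 CPM for both models against wildtype with p = 0.0595 (0.3 after adjustment). With full transcripts its reads were 8, 6 and 23 in Eµ-MTCP1, 71, 20 and 31 in Eµ-TCL1, against 53, 44 and 63 in wildtype mice. All Eµ-MTCP1 mice were then below all wildtype mice, as for 15% of all genes tested, while B4376 had more reads than any wildtype mouse. The log2 fold change of Cxcl10 was -1.85 ± 0.68 in Eµ-MTCP1 against wildtype (edgeR, adjusted p = 0.122) and -0.26 ± 0.64 in Eµ-TCL1 (adjusted p = 0.848). Of its 1064 transcript stretches of 31 bases, 103 also occur in Art3 on the opposite strand, outside the coding part.

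Cxcl16 had lower means in both models than in wildtype mice on both references. It had 5, 5 and 7 reads in Eµ-MTCP1, 4, 5 and 1 in Eµ-TCL1, against 9, 23 and 20 in wildtype mice on the coding reference. As 0.896 ± 0.232, 0.436 ± 0.258 and 2.21 ± 0.985 TMM-normalized CPM, Eµ-TCL1 mice lay below wildtype mice without overlap, as did 16.1% of all genes tested. In the exact permutation test the difference of both models from wildtype was -1.40 log2 CPM with p = 0.0238, where the design allows no less than 0.0119, and 0.286 after adjustment over 12 tests. For 3 mice against 3 the smallest p is 0.1, and Cxcl16 reached it in Eµ-TCL1 against wildtype (-1.79 log2 CPM, 0.3 after adjustment). With full transcripts the reads were 17, 16 and 11 in Eµ-MTCP1, 18, 13 and 8 in Eµ-TCL1, against 32, 37 and 42 in wildtype mice, and the 6 transgenic mice lay below the 3 wildtype mice without overlap, as did 9.01% of all genes tested (15.7% for Eµ-TCL1 alone). The log2 fold change of Cxcl16 was then -1.06 ± 0.52 in Eµ-MTCP1 (edgeR, adjusted p = 0.239), -1.40 ± 0.52 in Eµ-TCL1 (adjusted p = 0.129) and -1.23 ± 0.43 in both (adjusted p = 0.0894). With library size alone as normalization the last value was -1.40 and was called (adjusted p = 0.0486). Of 2416 transcript stretches of 31 bases, 522 are shared with Zmynd15 on the opposite strand and none of these is in the coding part, so the coding reference is free of them.

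**Figure D3:**
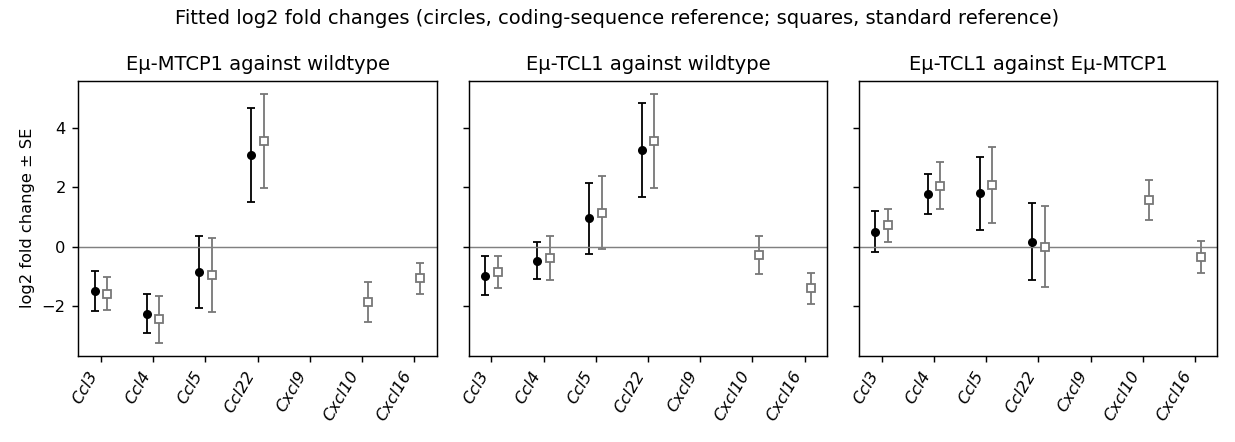
Fitted log2 fold changes with SE of the chemokine genes that passed the filter, in 3 comparisons; circles are the coding reference and squares the standard reference. Ccl3, Ccl4, Cxcl10 and Cxcl16 lie below 0 and Ccl22 above 0 in Eµ-MTCP1 against wildtype, with adjusted p-values between 0.0593 and 0.255.

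The models were also compared with each other, where edgeR called 0 of the 4 genes tested against a background of 0.0537% of all genes (6 of 11165). One had an unadjusted p under 0.05, against 6.22% of all genes, and DESeq2 called 0 against 0.654%. Among the 6 genes tested on the standard reference edgeR called 0 (background 0.0403%), 2 had an unadjusted p under 0.05 (background 6.53%), and DESeq2 called 0 (background 0.672%). Ccl4 was 1.78 ± 0.66 log2 units higher in Eµ-TCL1 on the coding reference, with an adjusted p of 0.714, and 2.06 ± 0.79 higher on the standard reference, with an adjusted p of 0.706. Its values there were 12.9, 6.12 and 1.15 CPM in Eµ-TCL1 and 1.32, 2.87 and 0.601 CPM in Eµ-MTCP1 mice, with C1594 in the range of the Eµ-MTCP1 mice. Cxcl10 on the standard reference was 1.58 ± 0.67 higher in Eµ-TCL1 (adjusted p = 0.734). Cxcl16 was lower in each Eµ-TCL1 mouse than in any Eµ-MTCP1 mouse on the coding reference, as were 5.62% of all genes tested, but the groups overlapped on the standard reference.

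Receptors of the 7 chemokines were examined next. Of 8 receptor genes 5 were tested, and in Eµ-MTCP1 against wildtype 1 rose and 1 fell, as in Eµ-TCL1 against wildtype. Of all genes tested 5.48% rose and 3.98% fell in Eµ-MTCP1, and 5.13% rose and 4.05% fell in Eµ-TCL1. The median log2 fold change of the 5 was 0.72 and 1.50, against -0.02 and -0.01 for all genes tested. Ccr1, which binds Ccl3 and Ccl5, had 54.1, 50.6 and 26.9 CPM in Eµ-MTCP1, 15.1, 20.6 and 26.6 in Eµ-TCL1, against 8.80, 6.30 and 6.95 in wildtype mice. It rose by 2.58 ± 0.34 log2 units in Eµ-MTCP1 (edgeR, adjusted p = 0.00112) and by 1.50 ± 0.33 in Eµ-TCL1 (adjusted p = 0.0169), with no overlap between either model and wildtype. The call in Eµ-MTCP1 held in 30 of 30 settings and that in Eµ-TCL1 in 23 of 30. The latter was lost without Eµ-TCL1 mouse C1594 (Ccr1, adjusted p = 0.0645), without wildtype mouse Z2755 (0.0772) or without Z2785 (0.0557), and on the standard reference without B4437 (0.0529).

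Cxcr3, the receptor of Cxcl9 and Cxcl10, had 2.13, 2.98 and 2.97 CPM in Eµ-MTCP1, 4.98, 0.860 and 0.980 in Eµ-TCL1, against 11.6, 11.5 and 20.7 in wildtype mice. It fell by 2.43 ± 0.64 log2 units in Eµ-MTCP1 (edgeR, adjusted p = 0.0377) and by 2.68 ± 0.65 in Eµ-TCL1 (adjusted p = 0.0254) on the coding reference. On the standard reference Cxcr3 was not called in the single models (adjusted p = 0.0635 and 0.111) and was called for both together (adjusted p = 0.0294). Leaving out any single Eµ-MTCP1 or wildtype mouse ended the call of Cxcr3 in Eµ-MTCP1 (adjusted p from 0.0724 to 0.1267 on the coding reference), and without B4437, C1594 or any wildtype mouse that in Eµ-TCL1 was lost (0.0553 to 0.0854). Activated T and NK cells also carry CXCR3.

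Cxcr6, the receptor of Cxcl16, had 9, 5 and 8 reads in Eµ-MTCP1, 13, 65 and 29 in Eµ-TCL1, against 9, 1 and 6 in wildtype mice, and its log2 fold change in Eµ-TCL1 was 2.70 ± 0.87 (adjusted p = 0.0809). Ccr4, the receptor of Ccl22, was under the filter, with 14 and 11 reads in Eµ-TCL1 mice B4437 and C1594 and 0 or 1 in the other 7. Ackr1, with at most 3 reads, was under it as well. Ackr2, a scavenger of inflammatory CC chemokines, and Ccr3, a receptor of Ccl5 on eosinophils, had adjusted p-values of 0.310 and 0.841 in Eµ-MTCP1 and 0.496 and 0.180 in Eµ-TCL1.

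Among 3 proteases that act on chemokines, Dpp4, which trims the N-terminus of Ccl5, Ccl22 and the CXCR3 ligands, had 4.04 ± 2.52 CPM in Eµ-MTCP1, 7.53 ± 8.04 in Eµ-TCL1, against 73.1 ± 18.9 in wildtype mice. Dpp4 fell by 4.16 ± 0.999 log2 units in Eµ-MTCP1 (edgeR, adjusted p = 0.0366). In Eµ-TCL1 its log2 fold change was -3.28 ± 0.94 with an adjusted p of 0.0686. On the standard reference the call of Dpp4 in Eµ-MTCP1 was lost (adjusted p = 0.0554), as it was on the coding reference without any 1 of the Eµ-MTCP1 and wildtype mice or without B4437 (0.0623 to 0.1167), and that for both models together held (0.0139 on the coding and 0.022 on the standard reference). Adam10, the sheddase of Cxcl16, and Adam17 had no adjusted p under 0.05 in any of the 4 comparisons in the edgeR fit of all libraries on either reference. In other settings Adam10 was called lower for both models together in 2 of 29, and Adam17 in 3 of 29 and, in Eµ-MTCP1 alone, in 1 of 30.

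**Figure D4:**
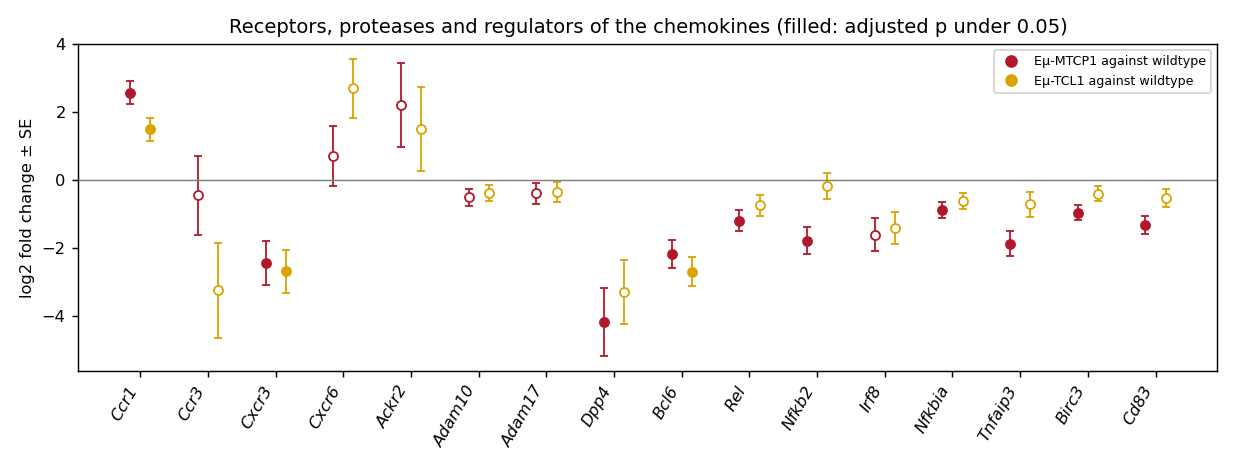
Log2 fold changes with SE of receptors, proteases and regulators against wildtype, in Eµ-MTCP1 (red) and Eµ-TCL1 (yellow), coding reference; filled symbols have an adjusted p under 0.05. Ccr1 lies above 0 in both models, and Cxcr3 and Bcl6 below 0 in both, while Nfkbia, Tnfaip3, Birc3 and Cd83 are filled for Eµ-MTCP1 alone.

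Transcription factors that act on chemokine genes were then listed. Of 11, all tested, 3 fell and 0 rose in Eµ-MTCP1 against wildtype, with a median log2 fold change of -1.19, and 1 fell in Eµ-TCL1, with a median of -0.27. The share of all genes tested that fell was 3.98% and 4.05%. Bcl6, a repressor of chemokine genes in B cells and other cells, fell by 2.17 ± 0.41 log2 units in Eµ-MTCP1 (edgeR, adjusted p = 0.00885) and by 2.69 ± 0.42 in Eµ-TCL1 (adjusted p = 0.00323), from 65.0 ± 11.6 CPM in wildtype mice to 14.4 ± 3.88 and 10.1 ± 6.65 CPM. The NF-κB subunits Nfkb2 and Rel fell in Eµ-MTCP1, by 1.77 ± 0.39 (adjusted p = 0.0194) and 1.19 ± 0.30 log2 units (adjusted p = 0.0334). In Eµ-TCL1 the log2 fold change of Nfkb2 was -0.16 (adjusted p = 0.837) and that of Rel -0.74 (adjusted p = 0.159). Bcl6 was called in 30 of 30 settings in each model, and in Eµ-MTCP1 Nfkb2 in 19 and Rel in 22. For both models together Irf8, an interferon regulatory factor of B and myeloid cells, fell by 1.50 ± 0.39 log2 units (adjusted p = 0.0329), a call made in 16 of 29 settings.

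Of 6 genes that NF-κB induces and that mostly feed back on it, 4 fell in Eµ-MTCP1 mice and 0 had an adjusted p under 0.05 in Eµ-TCL1 mice, where edgeR gave 1 an unadjusted p under 0.05. Among all genes tested 3.98% fell in Eµ-MTCP1, and in Eµ-TCL1 9.18% were called and 24.9% had an unadjusted p under 0.05. The 4 were the inhibitor gene Nfkbia (log2 fold change -0.87 ± 0.23, adjusted p = 0.0366), Tnfaip3, which encodes the deubiquitinase A20 (-1.86 ± 0.37, adjusted p = 0.0114), Birc3 (-0.95 ± 0.22, adjusted p = 0.0229) and the activation marker Cd83 (-1.31 ± 0.26, adjusted p = 0.0104). The calls of Tnfaip3 and Cd83 in Eµ-MTCP1 were made in 30 of 30 settings, that of Birc3 in 21 and that of Nfkbia in 18. In Eµ-TCL1 Tnfaip3 was called lower in 3 of 30 settings and Nfkbia in 1. For both models together edgeR called the same 4 genes lower on each reference, against 6.17 and 6.2% of all genes tested. All 6 had a log2 fold change below 0 in that comparison. The difference between the models was tested directly, and edgeR called 0 of the 6 between Eµ-TCL1 and Eµ-MTCP1, with 5 at an unadjusted p under 0.05, against 6.22% of all genes, and all 6 higher in Eµ-TCL1. The median log2 fold change of the 6 against wildtype was -0.91 in Eµ-MTCP1 and -0.46 in Eµ-TCL1.

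Of 18 interferon response genes, all tested, 11 had a log2 fold change below 0 in Eµ-MTCP1 and 5 in Eµ-TCL1, with medians of -0.67 and 0.45. In Eµ-MTCP1 1 of the 18 fell, against 3.98% of all genes tested, and in Eµ-TCL1 2 of the 18 rose, against 5.13%. Usp18, a negative regulator of interferon signalling, fell by 3.42 ± 0.81 log2 units in Eµ-MTCP1 (edgeR, adjusted p = 0.0253). In Eµ-TCL1, Igtp, an interferon-induced GTPase, rose by 1.45 ± 0.38 (adjusted p = 0.0409) and Psmb8, a subunit of the immunoproteasome, by 0.82 ± 0.22 (adjusted p = 0.045). These calls were made in 17 (Usp18), 13 (Igtp) and 15 (Psmb8) of 30 settings. For both models together Gbp5, a guanylate-binding protein, rose by 0.88 ± 0.25 (adjusted p = 0.0425) on the coding reference, but Gbp5 was at 0.24 on the standard reference (adjusted p = 0.758) and at -0.41 in the gene counts (adjusted p = 0.638), and was called in 8 of 29 settings. Between the models edgeR called 0 of the 18, with 8 at an unadjusted p under 0.05, against 6.22% of all genes.

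Other chemokine genes were mostly too low to test. Of 30, 5 passed the filter on the coding reference (Ccl2, Ccl6, Ccl9, Ccl27a and Cxcl2) and edgeR called 0 in any comparison, with 1 of 5, Ccl9, at an unadjusted p under 0.05 in Eµ-TCL1 against wildtype, where 9.18% of all genes were called and 24.9% had such a p. With full transcripts 9 passed, of which 1 was called in Eµ-TCL1 against wildtype, where 9.23% of all genes were. On that reference edgeR gave 4 of the 9 an unadjusted p under 0.05 in Eµ-TCL1, against 24.5% of all genes. In Eµ-MTCP1 it gave 0 of the 9 such a p, against 24.8%. There Ccl17, which like Ccl22 is a ligand of CCR4, had 12, 2 and 10 reads in Eµ-MTCP1, 133, 81 and 2 in Eµ-TCL1, against 3, 2 and 1 in wildtype mice, and rose in Eµ-TCL1 by 5.23 ± 1.29 log2 units (edgeR, adjusted p = 0.0321). Mouse C1594, with 2 reads, lay in the range of the wildtype mice, and the call was made in 9 of the 21 settings that tested Ccl17. It was lost without B4376 (adjusted p = 0.0835), B4437 (0.0634) or any wildtype mouse (0.1001 to 0.124).

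The levels of the 7 genes did not follow each other uniformly over the 9 libraries. As a description across mice that share groups and sequencing, Pearson r of log2 CPM was 0.883 between Ccl3 and Cxcl10, 0.834 between Ccl3 and Ccl4, and -0.594 between Ccl22 and Cxcl16. Genes most like Ccl3 were Rtp4, an interferon-induced gene (r = 0.959), Cd14, the monocyte coreceptor for lipopolysaccharide (r = 0.931), and Fam174a (r = 0.929). Ccl4 was most like Fas, the death receptor (r = 0.953), Akr1c13 (r = 0.950) and Dusp6, a phosphatase of ERK (r = 0.945). Crip2, Cdc14b and B9d2 came closest to Ccl22 (r = 0.954, 0.950 and 0.949), Homez, Mphosph9 and Ogfr to Cxcl10 (r = 0.968, 0.936 and 0.934), and Igflr1, Neurl2 and Rfc2 to Cxcl16 (r = 0.959, 0.953 and 0.946). Each was picked as the highest over all genes tested, from 9 points and, for the chemokines, few reads.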

How the data were processed

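The data were RNA-seq libraries of splenic B cells, 1 for each of 9 mice. Estimated counts per transcript had been made by the authors with Salmon (1.0.0 in the submitters' processing notes) on a standard mouse reference and on one with human sequences, with TPM values per transcript, scaled by effective length, deposited by the authors in the same files. Whole counts per gene were made by the authors by alignment (HISAT2 2.0.6, featureCounts, build GRCm38.p4 in those notes). Normalized values on a log2-like scale were deposited by the authors in a table that also holds their fold changes and tests, which were not used. The strand setting of the gene counts is not given in the sources used here.

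Estimated counts were joined to genes with GENCODE M21 (GRCm38; the paper names release 23), summed and rounded. Transcripts that could not be joined numbered 442 of 57871 and held at most 0.291% of the reads of a library (884 of 140748 and 0.27% on the standard reference). TMM factors were 0.911 to 1.18. Of 15362 genes with at least 1 read, filterByExpr kept 11165, and edgeR 4.0.16 (R 4.3.3) fitted all 9 libraries together with 1 coefficient per group. Genes under the filter were compared by exact permutation tests on log2 CPM. DESeq2 1.42.0, other scalings, no filter, length offsets, the gene counts, fits without immunoglobulin genes or with only the groups compared, and leaving out each library were alternatives; those on the standard reference beyond the edgeR fit were added after the data had been seen. The fits were tested on simulated data.

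The 7 genes and all gene lists were chosen with earlier results of these data known. The text names the 7 genes, list genes with an adjusted p under 0.05 (at most 5 per list, receptors always), and the 3 genes with the highest Pearson correlation to each gene that had more than 3 reads in at least 3 libraries, immunoglobulin genes left out. Ccl2, Ccl6, Ccl9, Ccl27a, Cxcl2 and Ccl17 were named after their values were seen. Some list genes are not reported here. The labels name a separate mouse for each library, so p-values measure the spread between mice. Reads carry no molecular identifiers, and floors cover counting error only.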

Additional observations from a re-analysis of the deposited data

How the results depend on the processing

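The number of the 7 chemokine genes called in Eµ-MTCP1 against wildtype was 0, and it was 1 (Ccl4) with library size alone, with DESeq2 and with only the groups compared, and 2 (Ccl3 and Ccl4) with DESeq2 on the standard reference. For both models against wildtype it was 1 (Cxcl16) on the standard reference with library size alone. Leaving out single libraries gave 0 to 1 on either reference in Eµ-MTCP1 and, on the standard reference, for both models, and 0 otherwise. Over all genes such omissions gave 516 to 1042 calls in Eµ-MTCP1 against wildtype (1056 with all libraries), 520 to 1239 in Eµ-TCL1 against wildtype (1025), 5 to 9 between the models (6) and 770 to 1610 for both models (1456), and on the standard reference 638 to 1406, 629 to 1614, 3 to 11 and 966 to 2175 (670 in Eµ-MTCP1 and 640 in Eµ-TCL1 without Z2754). DESeq2 called 1646, 1695 and 73 in the first 3 comparisons, and on the standard reference 2214, 2242, 100 and, for both models, 2828. Library size alone on the standard reference gave 1614 in Eµ-MTCP1 and 2389 for both models, and no filter gave 15 between the models.

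Directions turned for Ccl22 and Ccl3 between the models, for Ccl5 in every comparison and for Ccl4 in Eµ-TCL1. The log2 fold change of Ccl22 between the models was -0.03575 in the gene counts, -0.001216 on the standard reference and -0.005957 there with DESeq2. Without single libraries it was -0.41 to 0.34, and on the standard reference -0.60 to 2.51, with -0.4189, -0.3588, -0.001058 and -0.0009351 without Z2551, B4437, Z2754 and Z2785. That of Ccl5 for both models was -0.07246 with library size alone and -0.01635 with that setting on the standard reference. Without single libraries it was -0.88 to 1.21, and on the standard reference -0.92 to 1.44, with -0.1478, -0.00868, -0.2939 and -0.2736 without Z2551, Z2606, Z2754 and Z2755. Such omissions gave, on the coding and then the standard reference, -1.24 to 0.30 and -1.43 to 0.40 for Ccl5 in Eµ-MTCP1, -0.91 to 2.10 and -0.892 to 2.48 for Ccl5 in Eµ-TCL1, -0.06564 to 2.31 and 0.05 to 2.60 for Ccl5 between the models, -0.31 to 0.86 and -0.1087 to 1.12 for Ccl3 between the models, and -0.99 to -0.03 and -1.28 to 0.09121 for Ccl4 in Eµ-TCL1. Of the alternatives for single genes, 409 kept direction and side of the threshold, 9 passed it and 31 turned direction. The cause of these shifts was not tested. No paired analysis was possible because the labels number no replicates across groups, and numbers were given in order of accession. Depth limits Cxcl9, Cxcl10, Ccl22 and Cxcl16 most: on the coding reference the 9 libraries together held 7, 48, 61 and 79 reads of them.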

Other observations

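The remaining cell type lists gave these counts on the coding reference, where 9.46% of all genes were called in Eµ-MTCP1 against wildtype and 9.18% in Eµ-TCL1, and 24.8 and 24.9% had an unadjusted p under 0.05. Of the 9 macrophage and monocyte markers, Cd68 rose in each model against wildtype. Flt3 fell among the 4 dendritic cell markers tested in Eµ-TCL1. Of the 4 plasma cell markers Prdm1, which encodes Blimp-1, rose in both models, in 23 (Eµ-MTCP1) and 11 (Eµ-TCL1) of 30 settings. Cd22, an inhibitory coreceptor, fell in Eµ-TCL1 as 1 of 6 B cell markers, in 15 of 30 settings, and was not called on the standard reference (edgeR, adjusted p = 0.0536). EdgeR called 0 of the T cell (4 tested), NK and cytotoxic cell (6), neutrophil (5), platelet and megakaryocyte (1) and red cell markers (3) in either model against wildtype; 1, 1, 0, 0 and 0 of them had an unadjusted p under 0.05 in Eµ-MTCP1 and 1, 0, 1, 0 and 0 in Eµ-TCL1.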
